A study of Homo sapiens with 8 samples.

Results

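Replication-dependent histone genes were examined in RNA sequencing of 22Rv1 cells, a human castration-resistant prostate carcinoma line. The 4 MARK3i libraries came from cells given PCC0208017, described by the submitters as a MARK3 inhibitor, and the 4 Control libraries from cells given DMSO, the vehicle. Nothing more than the line is labelled for any of the 8, and the sources used here state neither dose, duration nor whether replicates were separate cultures, so p-values measure the spread between these libraries, which may be technical. The genes were chosen by symbol: protein-coding Ensembl rows whose GENCODE name is H1-1 to H1-6, or H2AC, H2BC, H3C or H4C followed by a number. Of 69 such symbols, 65 had a row among the 58735 of each file, namely 6 H1, 15 H2A, 18 H2B, 11 H3 and 15 H4 genes. The other 4 (H2AC18, H2AC19, H3C2 and H3C3) have identifiers in GENCODE that the files do not list, and were not analysed here.

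These genes supply the histones that package newly copied DNA. H2A, H2B, H3 and H4 form the nucleosome core and H1 binds the linker DNA. Their genes lie in clusters in many copies, are transcribed mainly in S phase under the coactivator NPAT, and end their mRNA at a short stem-loop bound by SLBP rather than at a poly(A) tail. Some copies can also use a poly(A) site downstream of the stem-loop, in particular outside S phase or in differentiated cells.

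The stem-loop is shown because it marks the 3′ end that sets these transcripts apart. In the hg38 genome, 60 of the 65 genes carried within 300 bases after a stop codon a perfect stem of 6 base pairs that opened with GG and held a loop of 4 bases opening with TT. A further 2 carried it with 1 base pair unmatched. The same search found it in 20 of 19679 other protein-coding genes (0.102%). The stem-loop began 23 to 63 bases after the stop codon. Capitals mark the loop in these examples, written 5′ to 3′ in the sense of the gene.
H2AC6, form found in 36 genes, none of them H4 genes: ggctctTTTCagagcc
H2BC4, form found in 9 genes, none of them H4 genes: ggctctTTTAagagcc
H4C1, form found in 10 genes, all of them H4 genes: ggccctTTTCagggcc
H4C9, form found in 4 genes, all of them H4 genes: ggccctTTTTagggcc
H2AC20, form found in this gene: ggctctTTTTagagcc
H2AC11, 1 base pair unmatched: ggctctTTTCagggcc
H3C6, H2BC10 and H4C13 showed no such stem-loop in the window searched.

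Reads on these genes were few. They made up 0.0132% to 0.0143% of the counts in MARK3i libraries and 0.00987% to 0.0106% in Control libraries, that is 1784 to 2887 reads per MARK3i library and 1305 to 1354 per Control library. A count was seen in at least 1 library for 53 genes, while 12 genes were at 0 in all 8. Only 19 genes passed the filter on low counts, and the 46 others had at most 32 counts in a library. Those 46 summed to 96 to 159 counts per MARK3i library and 62 to 84 per Control library. Scaled for depth, this was 7.58 ± 1.05 CPM in MARK3i and 5.58 ± 0.914 CPM in Control (CPM, counts scaled to library size with TMM factors; SD, n = 4 each), with overlapping libraries. H3C4 and H2AC7 were at 0, and 96.6% and 85.3% of their exon bases are also part of ENSG00000282988, a longer gene on the same strand. ENSG00000282988 had 47 to 79 counts in MARK3i and 62 to 80 in Control libraries. Scaled for depth, this was 4.17 ± 1.1 CPM in MARK3i and 5.5 ± 0.618 CPM in Control. It was called lower in edgeR's test described below (log2 change -0.416, adjusted p = 0.0448).

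Most of the reads fell on genes whose annotated model runs past the stem-loop. In GENCODE, 16 of the 65 gene models ran at least 100 bases of genome past the stem-loop, 46 ended at or just after it, and 3 had none. The 16 longer models held 63.6% of all reads on these histone genes, and 12 of them passed the filter. The 46 short models held 34%, and 6 passed the filter. These shares are not divided by exon length, and H2AC25, a longer model, alone held 25.9% of the reads. Per kb of exon, the short models of H2BC12, H1-2 and H2AC11 stood highest in MARK3i, and H2AC25 in Control. The sources used here do not name the annotation the authors counted on, which may draw these models differently. Other RNAs without a poly(A) tail were also nearly absent: of 38 such genes (RN7SL, small nuclear, Cajal body, vault and Y RNAs among them) 22 were at 0 in all libraries and 36 did not pass the filter. The signal recognition particle RNAs RN7SL2 and RN7SL3 passed it, without a call in either direction. RN7SL2 had 69.3 ± 6.5 CPM in MARK3i and 72.2 ± 19.5 CPM in Control. The other 37 summed to 2.35 ± 0.607 CPM in MARK3i and 2.18 ± 0.697 CPM in Control. That sum did not move with the groups beyond its spread, but it does not speak for single genes near 0. SNORA73B, below the filter, had 0.131 ± 0.122 CPM in MARK3i and 0.513 ± 0.145 CPM in Control, without overlap.

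The comparison of MARK3i with Control asked how these transcripts differ in cells given the compound. Of the 19 genes tested, 10 were higher in MARK3i, 2 were lower and 7 did not pass (edgeR's quasi-likelihood test, Benjamini-Hochberg adjusted p under 0.05 over all genes). Among all 16452 genes tested, 29.8% were called higher and 28.3% lower, 58% in all. All MARK3i libraries lay above all Control libraries in 11 of the 19, against 25.8% of all tested genes, and below them in 1 (H2AC25), against 25.1%. The median log2 change was 0.51 over the 19 genes and 0.02 over all genes. The filter favours genes high in a group: 5 of the 19 (H2BC18, H2BC4, H4C8, H2BC11 and H2AC13) passed it through their MARK3i libraries and 1 (H4C16) through its Control libraries. Of the 13 that passed in both groups, 8 were higher, 2 lower and 3 not called. With no filter, 10 of the 53 genes with any count were called higher and 2 lower, against 13.5% called higher and 13.5% lower among all genes with any count. H1-2, H2AC6, H2BC4, H2AC11, H2BC11, H2BC12, H2BC21, H3C6 and H3C10 were called higher and H2AC25 lower under the alternatives run, except that H1-2 missed an adjusted p under 0.01.

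**Figure D1:**
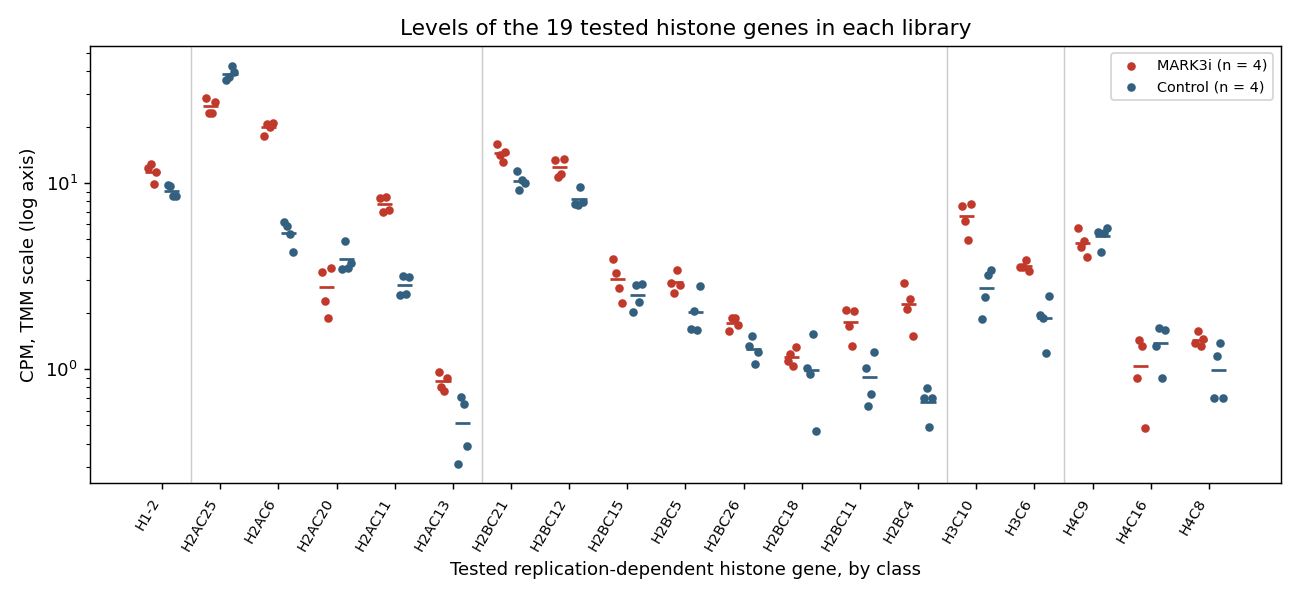
Each point is 1 library and each bar the group mean of 4, for the 19 tested histone genes grouped by class, in CPM on a log axis with MARK3i left of Control. The MARK3i libraries of H2AC6, H2AC11, H3C10 and H2BC4 lie clear above Control, and those of H2AC25 lie clear below.

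Among the 19 tested genes, both the largest rise (H2AC6) and the fall with the smallest p (H2AC25) were in H2A genes. H2AC6, which encodes a canonical H2A, had 258, 464, 287 and 303 counts in MARK3i libraries, against 79, 74, 65 and 55 in Control libraries. In depth-scaled terms this was 17.9, 20.8, 20.05 and 20.9 CPM in MARK3i and 6.17, 5.85, 5.32 and 4.28 CPM in Control. The groups were far apart, with no overlap. H2AC6 was 3.69-fold higher in MARK3i (log2 change 1.88 ± 0.12 SE, adjusted p = 7.74e-13), and 0.62% of all tested genes had a larger log2 change. It lies on chromosome 6 (26124145 to 26139116, hg38, plus strand, ENSG00000180573), and 0.45% of the 50-base windows of its exons occur in transcripts of another gene.

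H2AC11, another canonical H2A gene, had 8.28, 6.99, 8.38 and 7.17 CPM in MARK3i and 2.50, 3.16, 2.54 and 3.11 CPM in Control. It was 2.71-fold higher without overlap (1.44 ± 0.15, adjusted p = 1.70e-08). H2AC25 was the gene of the family with the most reads, 25.9% of the total. It had 28.6, 23.8, 23.8 and 27.1 CPM in MARK3i and 35.8, 37.0, 42.5 and 39.3 CPM in Control, so each MARK3i library lay below each Control library. It fell by 0.59 ± 0.08 on the log2 scale (adjusted p = 1.48e-06). H2AC25 (chromosome 1, 228434777 to 228457873, minus strand) lies apart from the large clusters, in a block of its own with H2BC26.

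H2AC20 had 3.34, 2.33, 1.89 and 3.52 CPM in MARK3i and 3.44, 4.90, 3.52 and 3.74 CPM in Control, with overlapping libraries. Its fall of 0.51 ± 0.21 (adjusted p = 0.037) ended with upper-quartile or total-count scaling, DESeq2 or GC offsets, and without MARK3i replicate 2 or 3 or Control replicate 2 or 4 (adjusted p up to 0.155). In H2AC20, 23.4% of the windows occur in other genes, H2AC18 sharing the most. H2AC13 (0.73 ± 0.36, adjusted p = 0.0882) did not pass, except with total counts or GC offsets, and shares 63.45% of its windows, H2AC14 sharing the most. H2AC21, below the filter, had 3, 6, 1 and 6 counts in MARK3i and 0, 0, 1 and 0 in Control. It was called higher when no filter was used (adjusted p = 0.0268), and 15.3% of its exon bases lie opposite BOLA1, which had 439 to 880 counts a library.

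H2B genes were called higher in 5 of 8 cases and lower in 0, against 29.8% and 28.3% of all tested genes. H2BC18, H2BC4 and H2BC11 passed the filter through their MARK3i libraries, which favours higher values there. H2BC4 had 42, 47, 34 and 22 counts in MARK3i and 9, 10, 6 and 9 in Control. This was 2.23 ± 0.583 CPM in MARK3i and 0.671 ± 0.127 CPM in Control, a 3.28-fold difference without overlap (1.71 ± 0.29, adjusted p = 1.86e-05). Of its exon bases, 14.9% lie opposite exons of HFE, an iron-regulatory gene with 3, 19, 15 and 16 counts in MARK3i and 5, 3, 6 and 3 in Control. The sources used here do not say whether counting used strand, and the part of HFE reads in the H2BC4 result was not tested. In addition, 27.75% of its windows occur in transcripts of other genes.

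H2BC21 and H2BC12, the H2B genes with the most reads, changed less than H2BC4 and H2BC11. This was no trend with read number: H2BC26, H2BC15 and H2BC18 had smaller log2 changes than both, and H2BC5 lay between them. H2BC21 had 16.2, 14.1, 12.99 and 14.7 CPM in MARK3i and 11.6, 9.17, 10.4 and 9.96 CPM in Control (0.49 ± 0.11, adjusted p = 3.68e-04). H2BC12 had 13.3, 10.7, 11.1 and 13.5 CPM in MARK3i and 7.74, 7.67, 9.49 and 7.94 CPM in Control (0.56 ± 0.12, adjusted p = 2.86e-04). Neither overlapped between groups. H2BC12 shares 57.2% of its windows with other records, ENSG00000274559 sharing the most.

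H2BC11 had 2.09, 1.70, 1.33 and 2.07 CPM in MARK3i and 1.02, 0.632, 0.736 and 1.25 CPM in Control (0.97 ± 0.28, adjusted p = 0.005), again without overlap. H2BC5 had 2.92, 2.56, 3.42 and 2.83 CPM in MARK3i and 1.64, 2.06, 1.64 and 2.80 CPM in Control, where replicate 4 reached the MARK3i range. Its call (0.51 ± 0.22, adjusted p = 0.0444) ended with no filter, DESeq2 or GC offsets, and without MARK3i replicate 1, 3 or 4 or Control replicate 1, 2 or 3 (adjusted p up to 0.132). H2BC26 (0.47 ± 0.24, adjusted p = 0.103), H2BC15 (0.28 ± 0.21, adjusted p = 0.253) and H2BC18 (0.24 ± 0.32, adjusted p = 0.53) did not pass. The H2BC26 libraries did not overlap, and H2BC26 passed with total-count scaling.

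**Figure D2:**
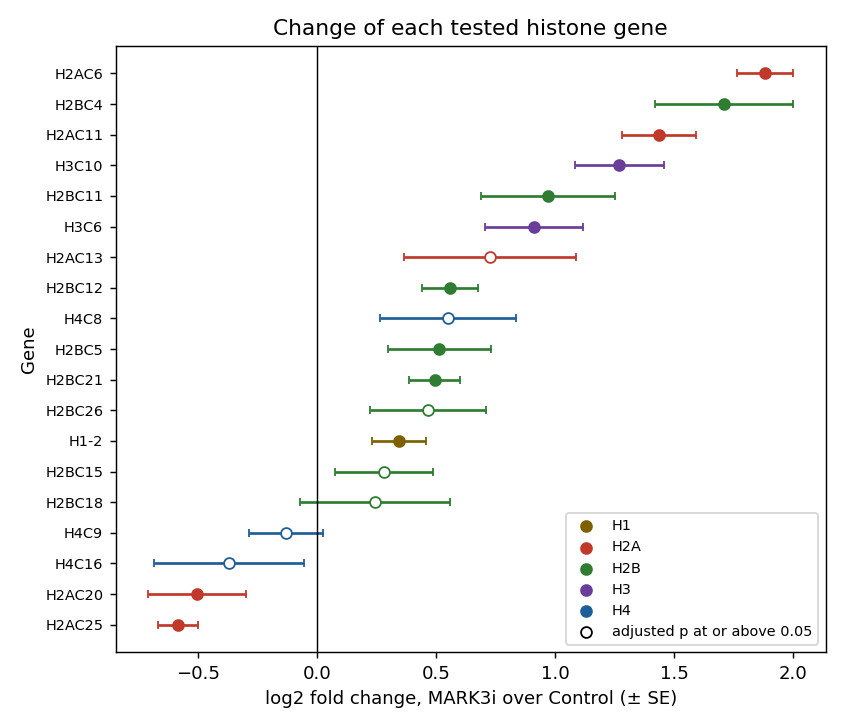
Points are log2 fold changes of MARK3i over Control with their standard errors, for the 19 tested histone genes ordered by size and coloured by class, and open points did not pass the test. H2AC6 stands at 1.88 at the top and H2AC25 at -0.59 at the bottom, with the 3 H4 genes open.

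Both tested H3 genes were called higher, against 29.8% of all tested genes. H3C10, which encodes a canonical H3, had 7.51, 6.28, 4.96 and 7.73 CPM in MARK3i and 1.88, 2.45, 3.19 and 3.43 CPM in Control, without overlap (2.41-fold, 1.27 ± 0.19, adjusted p = 2.92e-06). H3C6 had 3.55, 3.54, 3.84 and 3.38 CPM in MARK3i and 1.95, 1.90, 1.23 and 2.49 CPM in Control (0.91 ± 0.21, adjusted p = 5.25e-04). These 2 carried most of the H3 reads.

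H1-2, a linker histone gene, had 12.1, 12.6, 9.85 and 11.5 CPM in MARK3i and 9.77, 9.64, 8.51 and 8.48 CPM in Control. Its libraries did not overlap, the lowest MARK3i value being just above the highest in Control. The rise was small (1.27-fold, 0.345 ± 0.114, adjusted p = 0.0118). The 5 other H1 genes did not pass the filter and summed to 14 to 39 counts per MARK3i library and 5 to 18 per Control library.

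H4 genes were not called in either direction. H4C9 had 5.70, 4.53, 4.89 and 4.00 CPM in MARK3i and 5.47, 4.27, 5.40 and 5.76 CPM in Control (-0.13 ± 0.16, adjusted p = 0.487), with the groups interleaved. H4C8 (0.55 ± 0.29, adjusted p = 0.101) and H4C16 (-0.37 ± 0.32, adjusted p = 0.322) did not pass either. H4C8 and H4C16 had 7 to 36 counts per library. A difference between H4 and the other classes was not tested.

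Levels can be compared between genes after division by exon length. On that scale H2BC12 stood highest in MARK3i at 24.5 CPM per kb, against 16.6 in Control. H1-2 (15.8 in MARK3i, 12.4 in Control), H2AC11 (15.6 in MARK3i, 5.74 in Control) and H2AC25 (14 in MARK3i, 20.9 in Control) followed. H2AC6 had 11.9 CPM per kb in MARK3i and 3.24 in Control, and H4C9 had 12 in MARK3i and 13.2 in Control. In Control, H2AC25 was highest and H2AC6 was far below H4C9.

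Summed by class, the 5 histone types did not move to the same extent. These sums run over all members, below the filter or not, and carry no test. H3 genes summed to 11.2 ± 1.26 CPM in MARK3i and 5.30 ± 0.718 CPM in Control, a ratio of 2.12. H2B genes summed to 41.6 ± 3.28 CPM in MARK3i and 28.6 ± 0.742 CPM in Control, a ratio of 1.46. H1 genes gave 12.8 ± 1.34 CPM in MARK3i and 9.94 ± 0.816 CPM in Control, a ratio of 1.29, and in these 3 classes all MARK3i libraries lay above all Control libraries. H2A genes gave 58.2 ± 3.02 CPM in MARK3i and 52.2 ± 2.95 CPM in Control with overlap, a ratio of 1.11. That ratio is decided by H2AC25: on the log2 scale the H2A difference was 0.16 with it and 1.26 without it. H4 genes gave 9.34 ± 0.494 CPM in MARK3i and 9.08 ± 0.746 CPM in Control, also with overlap.

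**Figure D3:**
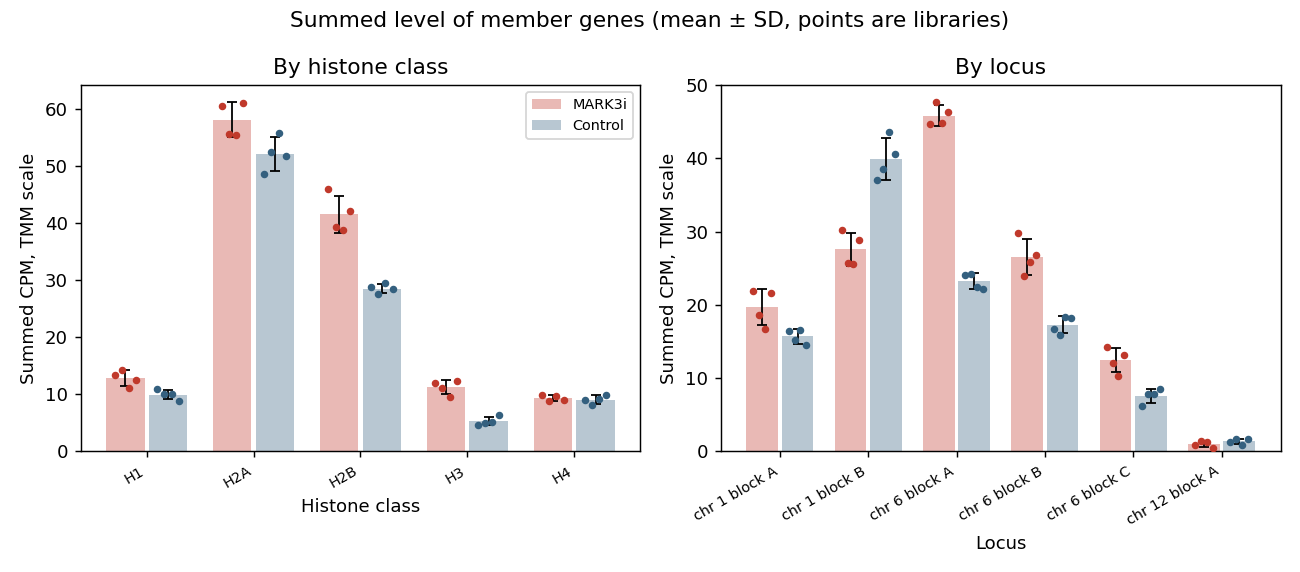
Bars are mean summed CPM of member genes by histone class (left) and by locus (right), with MARK3i left of Control, error bars of 1 SD and 1 point per library (n = 4 each). H3 and chromosome 6 block A are at 2.12 and 1.98 times their Control means in MARK3i, and chromosome 1 block B is the locus with clearly lower values.

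The loci also differed in their sums. Genes less than 500000 bases apart were put in a block. Chromosome 6 block A (25723397 to 26285638) holds 32 of the genes and summed to 45.9 ± 1.40 CPM in MARK3i and 23.2 ± 1.11 CPM in Control. Of its 6 tested genes, 5 were higher (H1-2, H2BC4, H2AC6, H2BC5 and H3C6). Block B of chromosome 6 (27125897 to 27147562, 5 genes) summed to 26.6 ± 2.46 CPM in MARK3i and 17.3 ± 1.17 CPM in Control, with H2BC11, H2AC11 and H2BC12 higher among 4 tested. Block C (27807479 to 27893891, 16 genes) summed to 12.4 ± 1.65 CPM in MARK3i and 7.60 ± 0.952 CPM in Control, with H3C10 higher among 3 tested. In each of these 3 blocks no MARK3i library overlapped a Control library. Among all tested genes, 29.8% were called higher. Of the tested genes in these blocks, H2BC4, H4C8, H2BC11 and H2AC13 passed the filter through their MARK3i libraries.

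The chromosome 1 blocks differed from each other. Block A (149782689 to 149887965, 9 genes) summed to 19.7 ± 2.47 CPM in MARK3i and 15.7 ± 1.02 CPM in Control, with H2BC21 higher and H2AC20 lower. Block B (228434777 to 228463104), which holds H2AC25 and H2BC26, summed to 27.6 ± 2.29 CPM in MARK3i and 39.9 ± 2.82 CPM in Control. H4C16, alone on chromosome 12 (14767999 to 14771131), had 0.904, 1.44, 1.33 and 0.483 CPM in MARK3i and 1.33, 1.66, 0.90 and 1.64 CPM in Control.

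Many H2A and H2B genes stand head to head and share the DNA between their starts. There were 12 such pairs with 169 to 250 bases between the gene models, and in 4 both genes were tested. H2AC6 with H2BC4 and H2AC11 with H2BC11 rose together. However, H2BC4 and H2BC11 passed the filter through their MARK3i libraries, so these pairs were tested because the H2B gene was high there. In the pair of H2AC20 and H2BC21 the H2B gene rose and the H2A gene was lower, and in the pair of H2AC25 and H2BC26 the H2A gene fell while the H2B gene did not pass. The log2 ratio of H2A to H2B CPM was taken in each library to test whether the partners changed unequally. These 4 tests were chosen after the values were seen, and the smallest p that 4 against 4 libraries allow is 0.0286.

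For H2AC20 over H2BC21 the log2 ratio was -2.28, -2.60, -2.78 and -2.06 in MARK3i and -1.76, -0.90, -1.56 and -1.42 in Control. The groups did not overlap and differed by -1.02 (two-sided exact permutation p = 0.0286, adjusted over 4 pairs 0.0572). For H2AC25 over H2BC26 it was 4.16, 3.66, 3.66 and 3.98 in MARK3i and 4.75, 4.62, 5.32 and 4.98 in Control, again without overlap (difference -1.06, exact permutation p = 0.0286, adjusted 0.0572). For H2AC6 over H2BC4 it averaged 3.20 ± 0.485 in MARK3i and 3.02 ± 0.352 in Control (difference 0.18, exact permutation p = 0.571), and for H2AC11 over H2BC11 2.12 ± 0.375 in MARK3i and 1.68 ± 0.482 in Control (difference 0.44, exact permutation p = 0.2). The last 2 ratios overlapped between groups. When 2 of 4 pairs reach the smallest p this design allows, the adjusted value is 0.0572, so these tests could not pass 0.05 for those pairs and do not decide whether the partners changed unequally.

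**Figure D4:**
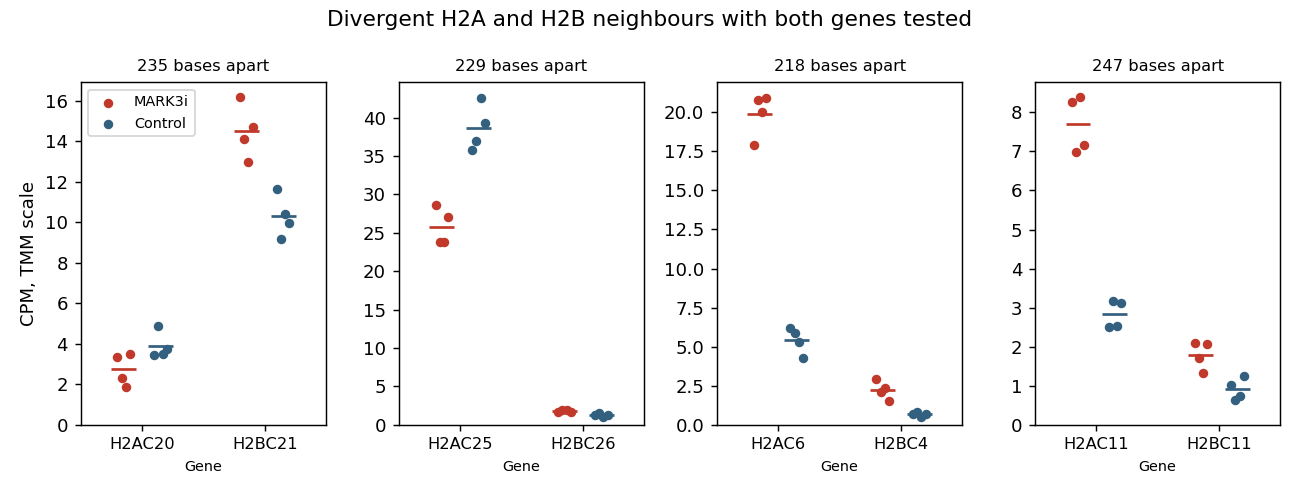
Each panel shows CPM of an H2A gene and its divergent H2B neighbour, with MARK3i left of Control, 1 point per library and bars at the mean of 4. In the pairs of H2AC6 and H2AC11 both genes lie higher in MARK3i, and H2BC4 and H2BC11 passed the filter through their MARK3i libraries. The means of H2AC20 and H2AC25 are lower and those of H2BC21 and H2BC26 higher, with overlapping libraries for H2AC20.

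The DNA between these partners is shown because both genes of a pair lie beside it. The RefSeq table (GRCh38.p14) held 64 promoters of 60 of the 65 genes. The motifs searched on both strands were the CCAAT box (these letters), the TATA box written as TATAAA, the octamer ATTTGCAT, which the factor POU2F1 is known to bind in H2B promoters, and the E2F-type letters TTTCGCGC, TTTGGCGC and TTTCCCGC. Over the 300 bases of each promoter, CCAAT was found in 54 of 64 (84.4%), against 34.6% of all 35116 promoters. TATAAA was in 65.6% against 11.5%, the octamer in 42.2% against 1.77%, and TTTCGCGC in 20.3% against 0.515%. TTTGGCGC was found in 0 of 64 against 0.652%, and TTTCCCGC in 1 of 64 against 1.63%. The octamer was found in 15 of 20 H2B and 11 of 14 H2A promoters and in 0 of 13 H4 promoters, where windows of divergent partners contain the same DNA. CCAAT was in 3 of 13 H4 promoters and in every H1, H2A, H2B and H3 promoter.

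The 250 bases before the RefSeq start of the H2A gene follow for the 4 pairs, 5′ to 3′ on that gene's strand. Capitals mark matches to these motifs. For H2AC6 the GENCODE model begins at 26124145, so the end of its window lies inside that model.
H2AC6, chr6:26123922-26124171, plus strand: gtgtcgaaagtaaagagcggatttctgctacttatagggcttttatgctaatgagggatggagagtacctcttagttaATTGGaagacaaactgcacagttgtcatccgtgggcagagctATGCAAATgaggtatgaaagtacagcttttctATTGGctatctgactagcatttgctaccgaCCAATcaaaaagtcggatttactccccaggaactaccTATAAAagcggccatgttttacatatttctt
H2AC11, chr6:27132793-27133042, plus strand: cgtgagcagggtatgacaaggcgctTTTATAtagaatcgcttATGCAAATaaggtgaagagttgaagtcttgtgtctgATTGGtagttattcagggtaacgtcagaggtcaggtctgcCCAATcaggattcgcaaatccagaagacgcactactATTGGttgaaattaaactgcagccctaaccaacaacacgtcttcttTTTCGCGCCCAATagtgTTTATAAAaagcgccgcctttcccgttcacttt
H2AC20, chr1:149886668-149886917, plus strand: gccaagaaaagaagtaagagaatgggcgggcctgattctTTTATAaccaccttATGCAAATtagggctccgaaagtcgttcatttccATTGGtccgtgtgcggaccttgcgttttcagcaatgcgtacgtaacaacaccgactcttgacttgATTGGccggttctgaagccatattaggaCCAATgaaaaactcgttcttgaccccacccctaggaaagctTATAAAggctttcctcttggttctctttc
H2AC25, chr1:228457874-228458123, minus strand: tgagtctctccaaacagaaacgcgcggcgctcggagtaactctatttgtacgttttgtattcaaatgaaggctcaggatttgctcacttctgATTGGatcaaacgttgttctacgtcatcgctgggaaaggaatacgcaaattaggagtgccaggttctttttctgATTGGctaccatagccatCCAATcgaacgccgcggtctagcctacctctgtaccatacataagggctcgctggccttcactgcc
The windows of H2AC6, H2AC11 and H2AC20 held the CCAAT box, the TATA box and the octamer, and that of H2AC11 also held TTTCGCGC directly beside a CCAAT box. The TATA box and its reverse complement overlap where TTTATAAA is printed. The window of H2AC25 held CCAAT alone among these motifs. These matches describe the letters in the window and do not show binding.

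Genes that act on histone mRNA and histone protein were read beside these values. Of 42 genes of histone pre-mRNA processing and transcription, 6 were higher, 19 lower and 17 not called (median log2 change -0.10). Among all tested genes, 29.8% were higher and 28.3% lower. With total-count scaling, 12 of the 42 were higher and 15 lower. SLBP, the stem-loop binding protein, had 139.5 ± 4.67 CPM in MARK3i and 206.8 ± 6.69 CPM in Control (-0.57 ± 0.06, adjusted p = 2.60e-09). CDK2 (-0.60 ± 0.06), the kinase that activates NPAT, fell, as did the Sm protein gene SNRPD3 (-0.49 ± 0.06). CPSF4 (-0.50 ± 0.06), of the cleavage and polyadenylation specificity factor, was lower too. UPF1 (-0.48 ± 0.06), whose helicase takes part in histone mRNA decay, also fell. NPAT itself did not pass (22.6 ± 4.16 CPM in MARK3i, 20.75 ± 2.77 CPM in Control, adjusted p = 0.426).

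The rises in that list were led by TUT7, a terminal uridylyltransferase that takes part in histone mRNA decay, with 25.3 ± 2.33 CPM in MARK3i and 14.9 ± 0.941 CPM in Control (0.76 ± 0.09, adjusted p = 1.15e-07). FIP1L1 (0.39 ± 0.08), of the poly(A) machinery, and HINFP (0.29 ± 0.08), an activator of H4 genes, rose as well. Cyclin A2 (CCNA2, 0.23 ± 0.07) and TUT4 (0.21 ± 0.07) were called higher, but these calls ended with GC offsets and without Control replicate 3, and that of CCNA2 also without MARK3i replicate 1 and that of TUT4 without MARK3i replicate 3. Without Control replicate 3 the list had 3 genes called higher.

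Histone chaperone and chromatin assembly genes were lower in 16 of 26 cases, higher in 4 and not called in 6 (median -0.36). The shares over all tested genes were 28.3% lower and 29.8% higher. The falls with the smallest p were those of MCM2, a helicase subunit that also binds histones (-1.14 ± 0.06), TONSL (-1.11 ± 0.07), which reads new H4 behind the fork, CHAF1A (-0.91 ± 0.06), the large subunit of the replication-coupled assembly factor CAF-1, RBBP4 (-0.75 ± 0.05), a further CAF-1 subunit, and NCL, which encodes nucleolin (-0.71 ± 0.05). SUPT6H (0.30 ± 0.06), CABIN1 (0.21 ± 0.06), HJURP (0.21 ± 0.06) and UBN1 (0.20 ± 0.06) rose. CABIN1 and UBN1 belong to the HIRA complex, which deposits H3.3 outside replication, and HJURP loads the centromeric histone. HIRA itself, named here after its values were seen, was called lower (-0.51, adjusted p = 5.39e-05), so the tested genes of that complex did not share a direction. The call of UBN1 ended without Control replicate 3 (adjusted p = 0.055).

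Of 42 genes of S-phase entry and DNA synthesis, 41 were lower and 0 higher (median -0.85). Among all tested genes, 28.3% were lower and 29.8% higher. The 42 genes summed to 3967 ± 153 CPM in MARK3i and 7029 ± 55.3 CPM in Control. In bulk RNA, fewer cells in S phase and less of these RNAs per cell cannot be told apart. Most called histone genes were higher, whereas most called S-phase and chaperone genes were lower, and a link between them was not tested.

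**Figure D5:**
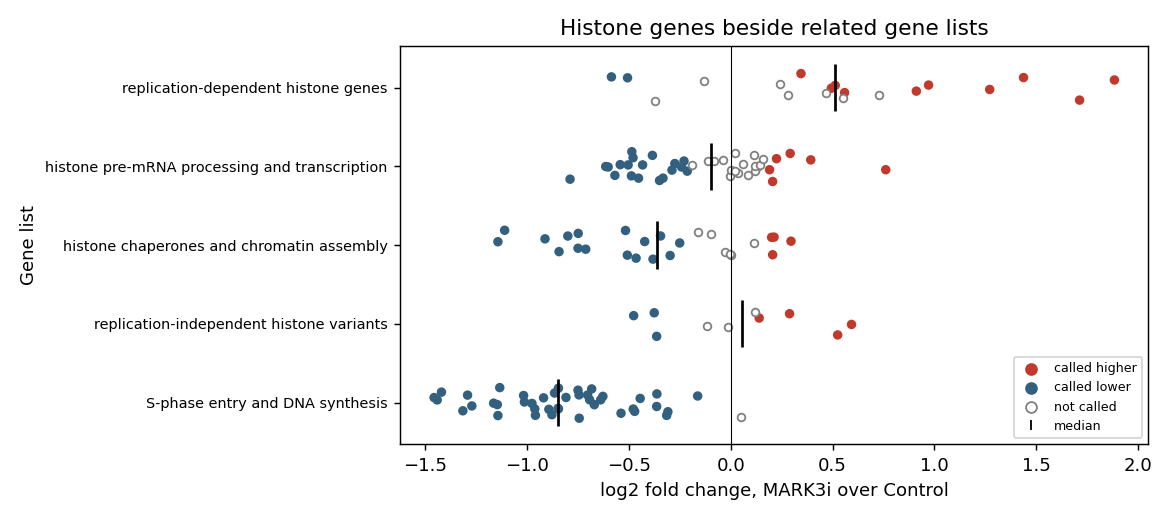
Each point is the log2 fold change of MARK3i over Control for a tested gene of the list named at left, filled when called and open when not, with a bar at the list's median. The histone genes have a median of 0.51, the S-phase list one of -0.85.

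Variant histone genes, many of which can be expressed outside S phase from polyadenylated mRNA, were far more abundant in these libraries. Per kb of exon, 27 variant genes summed to 1380 CPM in MARK3i and 1390 CPM in Control, against 136 in MARK3i and 105 in Control for the 65 replication-dependent genes. Of 10 variants tested, 4 were higher and 3 lower, near the 29.8% higher and 28.3% lower among all tested genes, so the counts are not a result about the variants. H3-3B, which encodes H3.3, rose (0.59 ± 0.06), as did the centromeric CENPA (0.53 ± 0.09), whereas H2AZ1 (-0.48 ± 0.06) and MACROH2A1 (-0.36 ± 0.05) fell.

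Total counts ran from 13517289 to 21271127 in MARK3i and from 12672817 to 13386143 in Control libraries, with 25536 to 28294 genes detected. The epithelial markers KRT8, KRT18, EPCAM and CDH1 and the prostate luminal factors HOXB13 and FOXA1 all passed the filter. KRT8 had 551.2 ± 32.6 CPM in MARK3i and 590.3 ± 23.6 CPM in Control, and FOXA1 483 ± 17.7 CPM in MARK3i and 481.7 ± 20.2 CPM in Control. HOXB13 had 350.4 ± 4.1 CPM in MARK3i and 427.7 ± 14.9 CPM in Control. Among 9 markers of leukocytes, fibroblasts and endothelium, CD3E, PECAM1 and CDH5 were at 0, and only COL1A1 passed the filter, at 17.96 ± 3.03 CPM in MARK3i and 11.3 ± 2.20 CPM in Control. Their summed level was 14.95 to 22.6 CPM in MARK3i and 9.33 to 14.2 CPM in Control, and their part in the histone results was not tested. Scaling by total counts alone put the median over all genes at 0.13, against 0.02 with TMM factors, and log2 differences of the class sums rose to a like extent (H1 to 0.47 with total counts, against 0.37).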

How the data were processed

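Whole-number counts per Ensembl gene were deposited, 1 table per library. The authors aligned reads to hg38, counted with featureCounts and ran DESeq2, per the submitters' processing notes and design text. Aligner, annotation, library kit, strandedness and treatment of multi-mapped reads: the sources used here name none of them, so reads could be shared or lost between histone copies. Symbols, exons and genome sequence came from GENCODE 44 on hg38, in which 58207 of 58735 identifiers were found.

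The test was edgeR's (version 4.0.16, R 4.3.3): filterByExpr on group, TMM factors, robust glmQLFit and glmQLFTest on group alone, and Benjamini-Hochberg adjustment over 16452 genes. The standard error is the absolute log2 change divided by the square root of F. CPM are counts over total count times TMM factor. Alternatives used RLE, upper-quartile and total-count scaling, other filters, DESeq2 1.42.0, limma-voom (limma 3.58.1), no robust dispersion, GC offsets, a replicate block, each library left out and an adjusted p under 0.01. The procedure was tested on simulated data. All replicate pairs within a group differed by more than sampling noise (chi-square per degree of freedom 1.708 to 9.796). Control replicates 1 and 2 (1.727) and Control replicates 3 and 4 (1.708) were closer than other Control pairs (3.415 to 4.596). The tests took the 4 Control libraries as independent, and whether they were was not tested. Depth allowed a median standard error of 0.096, and low counts of single histone genes limit precision further.

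The members and lists were chosen with earlier results of these data known. All tested members are named. SLBP and NPAT are named, as are the called genes with the smallest p from the processing, chaperone and variant lists (up to 5 per direction, or 4 for variants). The S-phase list is given by counts and summed level.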

Additional observations from a re-analysis of the deposited data

Results flagged for a closer look

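In 48 groups of 4 libraries (19 tested genes and 5 class sums in each condition), 1 library stood apart from the others of its group. H2BC12 had 9.49 CPM in Control replicate 3, against 7.67 to 7.94 CPM in the other Control libraries. All 4 MARK3i libraries lay above this value too. Chance flags about 1 in 20 groups of 4.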

How the results depend on the processing

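Of 185 recomputed values of the main results, 165 stayed within the limits set (a factor of 1.5 for counts, 1 SD for class sums). Histone genes called higher numbered 9 to 10 when single libraries were left out and genes called lower 1 to 2. The genes called lower were 1 in place of 2 with upper-quartile scaling, total counts, GC offsets, GC offsets with the replicate block, DESeq2 and an adjusted p under 0.01, H2AC20 being the call that was lost. Processing genes called higher numbered 12 with total counts in place of 6, and 3 to 7 with single libraries left out. The log2 difference of class sums was 0.66 for H1, 1.26 for H2A, 0.85 for H3 and 0.24 for H4 without the most abundant gene, in place of 0.37, 0.16, 1.08 and 0.04. It was 0.26 for H2A, 0.65 for H2B (0.54 with TMM) and 0.145 for H4 with total counts. The H4 sum turned to -0.065 with tested genes only and ranged from -0.01 to 0.09 with single libraries left out, so no direction is given for it. Why values moved was not tested beyond what each setting removes. Replicate numbers are shared by the groups, but same-numbered libraries deviated together only weakly (correlations 0.131, -0.088, -0.053 and 0.084), so they were not treated as pairs. With the replicate block 10 histone genes were higher and 2 lower, as without it. Depth limits the 46 genes below the filter, for which differences were not detectable one by one except for H2AC21 with no filter.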
